A study of Mus musculus with 12 samples.

Results

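Semaphorins, plexins, ephrins, Eph receptors, Slits, Robos, netrins and Unc5 receptors are guidance ligands and receptors, and their transcripts were examined here in lymphatic endothelial cells (LECs) sorted from mouse lung. The members are 58 genes, taken as the rows of the count files whose Ensembl identifiers carry those symbols in GENCODE M21, out of 52636 genes counted. They comprise 20 semaphorins, 9 plexins, 8 ephrins, 11 Eph receptors, 6 Slit and Robo genes and 4 netrin and Unc5 genes. All 58 were found, and 56 had enough counts for the test, the exceptions being Epha5 and Slit1.

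The question of the study was how cigarette smoke (CS) alters lung LECs over short and long exposures. Prox1-EGFP reporter mice, in which GFP marks cells that use the Prox1 promoter, were exposed to CS or kept in room air (RA), and every group carried the same reporter. Exposure began at 6 weeks of age and ran for 8 weeks (acute) or for at least 24 weeks (chronic), and the RA mice were matched for age, as the study's methods give it, although the labels list 8 weeks as the age of the acute mice. The groups were acute CS (n = 2 libraries), acute RA (n = 2), chronic CS (n = 5) and chronic RA (n = 3). The acute libraries were pools of 2 to 5 mice of 1 sex, so exposure time and pooling cannot be told apart. Libraries are named F or M by the sex in their labels, with a number where there were several. Live cells were sorted as positive for CD31 and GFP and negative for EpCAM and blood lineage markers, so a cell that had lost the reporter signal would not be collected. Counts are given as CPM, counts relative to the library total corrected by edgeR's TMM factors, and levels of different genes are compared only as FPKM, which also divides by exon length.

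Guidance proteins were first known from growing axons and are used again by vessels. Class 3 semaphorins are secreted and mostly bind a neuropilin that is paired with an A-type plexin or plexin D1, while Sema3e binds plexin D1 directly. Ephrins stay on the cell surface and signal by contact to Eph receptor kinases of the neighbouring cell, and also back into their own cell. In lymphatic vessels, Nrp2 is a co-receptor for VEGF-C as well as for semaphorins, and Sema3a with Nrp1, and Efnb2 with Ephb4, are known for the formation of valves.

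Library totals ranged from 18821438 to 56998590 counts, and 3 of the 5 chronic CS libraries (F, M1 and M2) were the shallowest. Of 8 lymphatic markers, 7 were plainly counted in every library and Ccl21a was near 0 throughout. Both acute CS libraries stood apart: the summed CPM of the 8 lymphatic markers was 6190 to 9579, against 14284 to 16074 in acute RA, whereas 12 blood endothelial markers summed to 7051 to 8656 against 2778 to 3641. The sum of 8 leukocyte markers was 1383 to 1884 in acute CS and 235 to 241 in acute RA, and that of 11 mesenchymal markers was 674 to 1054 and 147 to 217. In such bulk samples fewer cells of a type and less RNA per cell cannot be told apart.

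In room air, a few genes made up most of each family. Over the 5 RA libraries the mean level was at least 100 FPKM for 5 members, 10 to 100 FPKM for 13, 1 to 10 FPKM for 14 and under 1 FPKM for 26. The ligand gene Efna1 was highest at 358 ± 74.9 FPKM (SD, n = 5), followed by the receptor gene Ephb4 at 147 ± 13.4 FPKM. The next 3 levels were Sema3f at 132 ± 33.1 FPKM, the endothelial receptor gene Robo4 at 125 ± 9.69 FPKM and the secreted ligand gene Ntn1 at 124 ± 33.7 FPKM. Among these 4 genes below Efna1, neighbours in the order differed by less than the larger of their SDs.

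**Figure D1:**
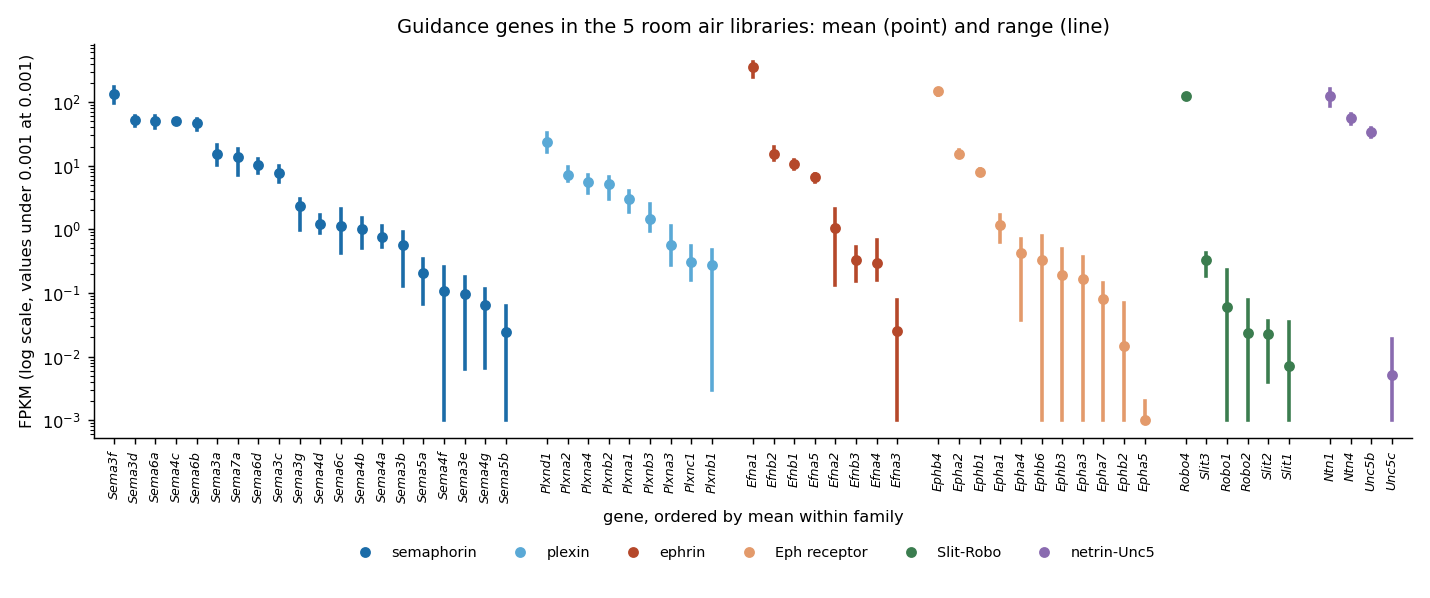
Level of all 58 members in the 5 room air libraries, in FPKM on a log axis, grouped by family and ordered by mean (points, with the range over libraries as lines). Each family falls from 1 to a few genes near or above 20 FPKM to members under 1 FPKM, with Efna1 (358 FPKM) at the top.

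The leading gene of each of the following sets was the same in all RA libraries. Efna1 accounted for 88.1% to 92.2% of summed ephrin FPKM, Ephb4 for 82.2% to 86.7% of that of the Eph receptors and Plxnd1 for 44.2% to 56.3% of that of the plexins. Sema3f, a ligand of Nrp2, held 56.5% to 67.8% of the class 3 semaphorin FPKM, and Sema3d held 20.5% to 28.7%. Nrp2 held 95.1% to 97.6% of the FPKM of the 2 neuropilins. At the low end, Slit2, which encodes a ligand of the Robo receptors, had a mean of 0.0227 FPKM, and its relative Slit3 had 0.325 ± 0.0929 FPKM (SD, n = 5).

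After acute CS, 6 members rose and 3 fell. Those that rose were the secreted ligand genes Sema3b, Sema3c and Sema3g, the membrane ligand gene Sema4a, and the receptor genes Plxna1 and Ephb6. Those that fell were Sema3a, Sema3d and Sema4c, so that 7 of the 9 calls were semaphorins. The 9 calls of 56 members compare with 3.47% of the 21440 genes tested (2.75% higher and 0.723% lower), by the quasi-likelihood test of edgeR and adjustment after Benjamini and Hochberg. A further 14 members had an unadjusted p under 0.05, giving 23 of 56 (16 higher, 7 lower) against 15.7% of all genes. The CPM of both groups did not overlap for 37 members, 26 higher and 11 lower, against 49.9% of all genes (27.4% and 22.5%). The median log2 fold change was 0.69 over the members and 0.04 over all genes. It was -0.25 for the 24 members whose mean log2 CPM reached 5, against -0.07 over all such genes, and 1.85 for the 32 below, against 0.16. Without acute CS F the member median was 0.28, and without chronic RA M2 it was 0.24.

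The calls changed when single acute libraries were left out and with the fit. Most or all of the 9 calls were lost without acute CS F, acute RA F or acute RA M. Calls among all genes became fewer in the same fits. Without acute CS M, Sema3b and the 3 that fell were no longer called, whereas calls among all genes did not become fewer. Each of these fits leaves 1 group with a single library, whose spread is then assumed to be that of the other groups. Leaving out chronic RA F or chronic RA M1, which are in neither acute group, left 5 calls each, against 2.83% and 2.73% of all genes. When just the acute libraries were fitted none of the 9 was called and Slit3 was, against 0.701% of all genes. With sex as a covariate 7 were, without Sema3c and Sema3d, against 3.04%. With libraries of the same exposure time and replicate label taken as a block, 0 were, against 0.34%. Every called log2 fold change kept its sign in each of these fits.

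Of the 7 class 3 semaphorins, the 3 with the highest FPKM in room air fell or overlapped between groups, and 3 of the 4 others rose. Sema3a (chr5:13125414-13602565), a secreted ligand read through Nrp1, was counted at 220 CPM in F and 170 CPM in M of acute RA, and at 63.1 and 88.9 CPM in F and M of acute CS. Both smoke libraries lay below both controls, and Sema3a fell by 1.36 on the log2 scale (SE 0.31, edgeR's adjusted p = 0.0363). Sema3d (chr5:12383385-12588948), another secreted family member, was at 471 and 457 CPM in acute RA and 144 and 209 CPM in acute CS. The groups did not overlap, with F lowest, and Sema3d fell by 1.39 (SE 0.33, edgeR's adjusted p = 0.0445). Without acute CS F these log2 fold changes were -1.13 for Sema3a and -1.15 for Sema3d.

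Sema3c (chr5:17574281-17730268), a secreted ligand gene known from heart and vessel development, moved the other way. It was counted at 71.4 CPM in F and 39.3 CPM in M of acute RA and at 957 and 240 CPM in acute CS, so that F was several times M within the smoke group and both exceeded the controls. The log2 fold change was 3.43 (SE 0.79, edgeR's adjusted p = 0.0373), and 2.12 without acute CS F. Sema3g (chr14:31217860-31230352), a ligand gene known from arterial endothelium, was at 13.7 and 13.5 CPM in acute RA and at 205 and 40.5 CPM in acute CS. Again F was the higher smoke library, with a log2 fold change of 3.17 (SE 0.68, edgeR's adjusted p = 0.0271), and 1.57 without it.

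Sema3b (chr9:107597674-107609229), which encodes a secreted ligand of neuropilins, was nearly absent from acute RA, at 0.608 CPM in F and 3.31 CPM in M. In acute CS it was at 28.4 and 26.8 CPM, both libraries alike and above both controls. Its log2 fold change was 3.81 (SE 0.84, edgeR's adjusted p = 0.0306), and 3.77 without acute CS F. Over all alternative fits it ranged from 3.06 to 5.46. Its neighbour Sema3f (chr9:107681500-107710475), the leading semaphorin in LECs, was at 567 and 820 CPM in acute RA and 640 and 489 CPM in acute CS. These ranges overlapped, and the log2 fold change was -0.30 (SE 0.33, edgeR's adjusted p = 0.787). The remaining member, Sema3e, was at 1.64 and 1.48 CPM in acute RA and 20.7 and 3.21 CPM in acute CS, with edgeR's adjusted p = 0.279.

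The mix of class 3 transcripts shifted accordingly. Sema3c made up 2.24% to 5.82% of class 3 FPKM in the RA libraries, and 40.4% (F) and 19.4% (M) in acute CS. Sema3d held 5.05% (F) and 14% (M) in acute CS, below its RA range of 20.5% to 28.7%. The ratio of Sema3d to Sema3c, on the FPKM scale, was 4.54 to 9.64 in room air and 0.125 in F and 0.722 in M of acute CS. The summed FPKM of the class was 332 in F and 173 in M, on both sides of the acute RA values of 193 and 232.

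Sema3d, Sema3a, Sema3e and Sema3c lie in that order on chromosome 5 of GRCm38, between 12383385 and 17730268, so genes of opposite direction shared this stretch. Promoter sequence is shown for Sema3d and Sema3a, which fell, and Sema3g, which rose. Sema3b and Sema3c, which also rose, are not shown, so the windows do not compare the directions. Each run ends at the base before the RefSeq start (GRCm38.p6, plus strand) or, for Sema3g, before the first exon in GENCODE M21. Capitals mark the GC box, GGGCGG or its reverse complement CCGCCC. The windows are chr5:12382916-12383165 for Sema3d, chr5:13396534-13396783 for Sema3a, which lies inside the longer gene model of GENCODE, and chr14:31217623-31217859 for Sema3g.
Sema3d: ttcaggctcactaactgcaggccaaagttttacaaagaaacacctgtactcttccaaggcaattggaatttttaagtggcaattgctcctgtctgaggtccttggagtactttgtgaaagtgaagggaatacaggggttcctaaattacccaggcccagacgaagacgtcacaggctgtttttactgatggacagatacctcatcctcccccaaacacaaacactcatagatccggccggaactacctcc
Sema3a: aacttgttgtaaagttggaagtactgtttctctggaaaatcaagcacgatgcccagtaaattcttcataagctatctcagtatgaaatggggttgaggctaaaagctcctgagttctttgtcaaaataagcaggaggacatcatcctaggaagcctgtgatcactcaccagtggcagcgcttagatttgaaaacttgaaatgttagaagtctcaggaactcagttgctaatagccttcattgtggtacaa
Sema3g: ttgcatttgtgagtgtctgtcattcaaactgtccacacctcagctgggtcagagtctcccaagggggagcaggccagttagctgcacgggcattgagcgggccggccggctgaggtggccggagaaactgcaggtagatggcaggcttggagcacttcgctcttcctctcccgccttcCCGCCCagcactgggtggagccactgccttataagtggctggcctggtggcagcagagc
The Sema3g window held 1 GC box and the other windows held none, while 32.7% of 32851 RefSeq promoter windows of 250 bases held at least 1 on either strand. The xenobiotic response element core, GCGTG or CACGC, was in none of the 3 windows and in 28.2% of all windows, and TATAAA or TTTATA was in none and in 12.4%. The share of G and C was 46.8% in Sema3d, 40.8% in Sema3a and 61.6% in Sema3g, against a median of 52.4% over all windows. Promoter entries existed for 50 of the 58 members. Counted by gene with any window holding it, the GC box was in 36 of these 50 (72%) and in 35.4% of all genes, the xenobiotic core in 21 (42%) and 30.9%, and TATAAA in 2 (4%) and 14.3%. These are matches of letters only.

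Of the class 4 semaphorins, which are membrane proteins, Sema4c fell and Sema4a rose. Sema4c (chr1:36548639-36558349), a ligand gene of plexin B2, was at 219 and 250 CPM in acute RA and 107 and 109 CPM in acute CS. The smoke libraries were nearly equal and below both controls, and Sema4c fell by 1.12 on the log2 scale (SE 0.24, edgeR's adjusted p = 0.0286), and by 1.10 without acute CS F. An antisense transcript overlaps its exons, and the library kit does not mark strand, so their reads cannot be told apart where they overlap. That transcript held 1511 counts over all libraries, against 82503 for Sema4c. Sema4a (chr3:88435959-88461182), a ligand gene also used by immune cells, was at 4.8 and 3.42 CPM in acute RA and 70.5 and 17.6 CPM in acute CS. Its log2 fold change was 3.42 (SE 0.78, edgeR's adjusted p = 0.0361), and 2.10 without acute CS F, the higher of the smoke libraries.

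The other 11 semaphorins outside class 3 had adjusted p-values above 0.05 in edgeR's test. DESeq2 called Sema6c among them (adjusted p = 0.0335), against 8.98% of all genes. Sema6c was at 2.48 and 3.18 CPM in acute RA and 11.3 and 4.75 CPM in acute CS, without overlap. The class 6 gene highest in room air, Sema6a, overlapped between groups and was at 426 and 339 CPM in acute RA and 403 and 303 CPM in acute CS. Sema4d, a leukocyte and endothelial ligand gene of plexin B1, was at 9.51 and 12.7 CPM in acute RA and 69.8 and 35.5 CPM in acute CS, without overlap (edgeR's adjusted p = 0.271).

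Among the plexins, the semaphorin receptors, edgeR called 1 of 9 (3.47% of all genes), and DESeq2 called Plxna1, Plxnb2 (adjusted p = 0.00529) and Plxnc1 (adjusted p = 0.0318), against 8.98% of all genes. Plxna1 (chr6:89316314-89362620), a partner of the neuropilins, was at 24.6 CPM in F and 16.9 CPM in M of acute RA, and at 182 and 53.9 CPM in acute CS. Both smoke libraries exceeded both controls, F by more, with a log2 fold change of 2.51 (SE 0.55, edgeR's adjusted p = 0.0296), and 1.38 without acute CS F. Plxna1 made up 5.06% to 7.3% of plexin FPKM in room air and 30.2% (F) and 15.6% (M) in acute CS.

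The leading plexin, Plxnd1, was at 120 and 136 CPM in acute RA and 121 and 92.8 CPM in acute CS, which overlapped (log2 fold change -0.26, edgeR's adjusted p = 0.733). Plxna2, an A-type plexin gene, was at 125 and 110 CPM in acute RA and 100 and 86.2 CPM in acute CS. It did not overlap between groups, yet its log2 fold change of -0.33 had an adjusted p of 0.591 in edgeR's test. Plxnb2, a receptor of Sema4c, was at 34.7 and 23.5 CPM in acute RA and 104 and 50 CPM in acute CS (edgeR's adjusted p = 0.0728).

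The neuropilin co-receptors, which are not members but are needed to read the class 3 ligands, came close in level after acute CS, and in F Nrp1 exceeded Nrp2. Nrp1 was at 35 and 37.8 CPM in acute RA and 815 and 371 CPM in acute CS, with a log2 fold change of 4.03 (SE 0.57, edgeR's adjusted p = 0.00603). Nrp2 was at 1741 and 1823 CPM in acute RA and 581 and 749 CPM in acute CS, and fell by 1.42 on the log2 scale (SE 0.20, edgeR's adjusted p = 0.0057). Neither gene overlapped between the groups. The ratio of Nrp2 to Nrp1, on the FPKM scale, was 19.5 to 41.1 over the RA libraries and 0.589 (F) and 1.67 (M) in acute CS. Without acute CS F the log2 fold changes were 3.35 for Nrp1 and -1.25 for Nrp2, with edgeR's adjusted p-values of 0.0287 and 0.0457. The adjusted p was 0.07 for Nrp1 without acute RA F, 0.0898 for Nrp1 and 0.0766 for Nrp2 without acute RA M, and 0.0544 and 0.0667 when just the acute libraries were fitted, all from edgeR. Nrp1 is abundant in blood endothelium, and the 12 blood endothelial markers were all higher in acute CS, 8 of them called. The part of these markers in the result was not tested.

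**Figure D2:**
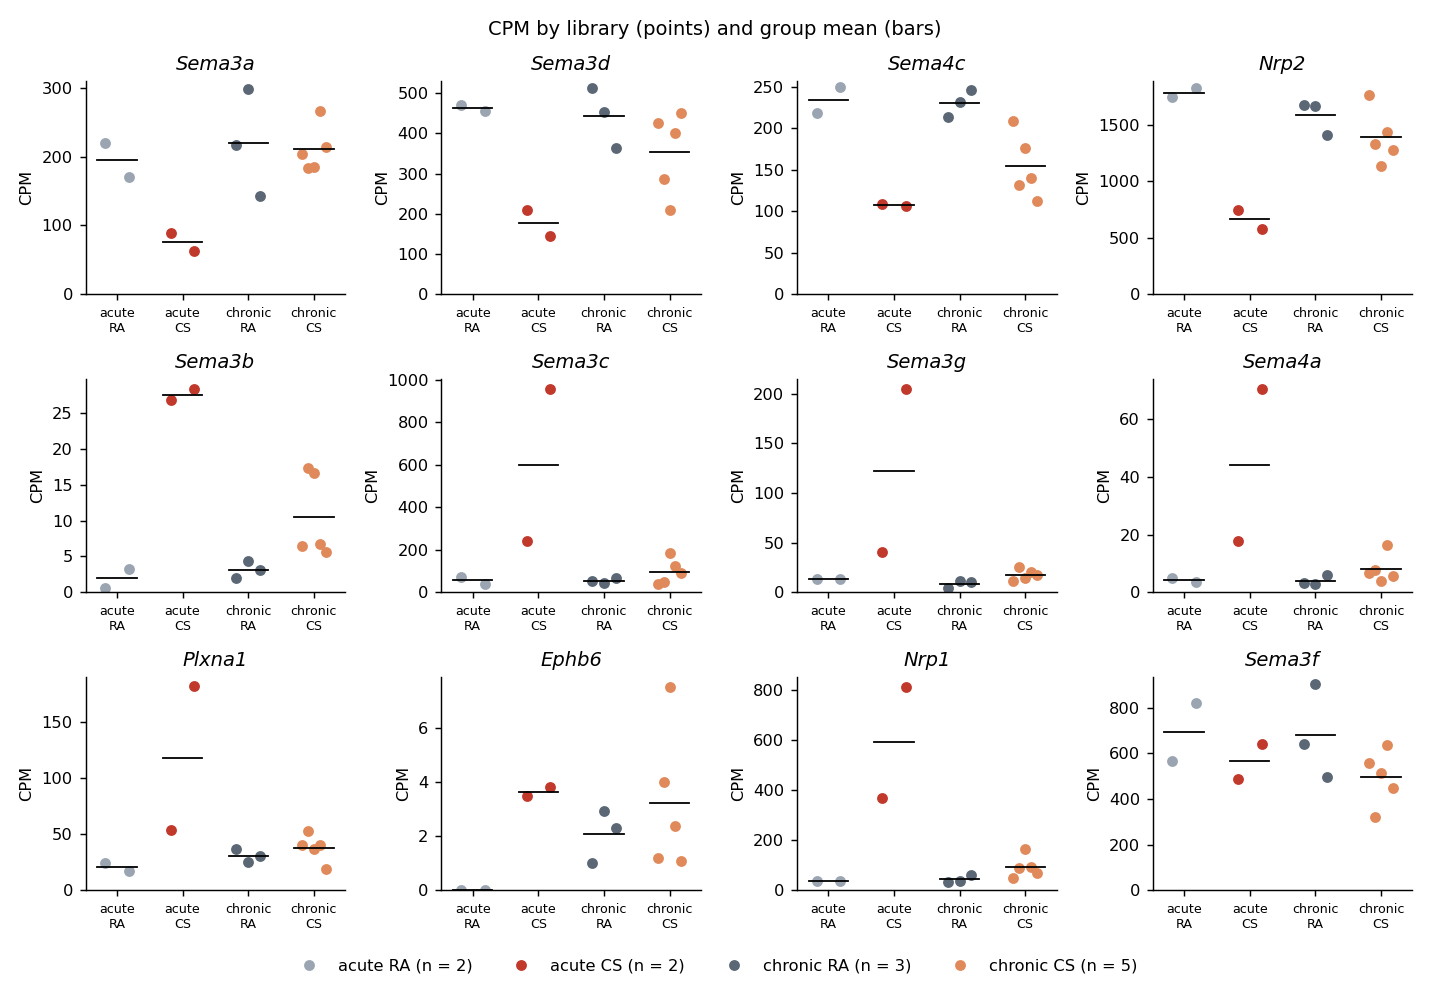
CPM of the 9 members called after acute CS, of Nrp1 and Nrp2, and of Sema3f, with each library as a point and the group mean as a bar (n = 2, 2, 3 and 5). The axes are linear and start at 0. In the acute CS group, 1 library (F) lies far above the other for Sema3c (957 and 240 CPM), Sema3g, Sema4a and Plxna1.

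Of the 8 ephrins none passed the threshold after acute CS in edgeR's test, whereas 3 had an unadjusted p under 0.05 (15.7% of all genes) and DESeq2 called Efnb1 and Efnb2 (8.98% of all genes). Efna1, the leading ligand gene, was at 445 and 592 CPM in acute RA and 383 and 494 CPM in acute CS, which overlapped (log2 fold change -0.24, edgeR's adjusted p = 0.743). Efnb2, the ligand gene that marks arteries and lymphatic valves, was at 102 and 85.5 CPM in acute RA and 389 and 141 CPM in acute CS. It did not overlap between groups, with a log2 fold change of 1.50 (SE 0.41, edgeR's adjusted p = 0.0789). Its relative Efnb1 was at 33.8 and 30.8 CPM in acute RA and 214 and 111 CPM in acute CS, just outside the threshold (edgeR's adjusted p = 0.0532).

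Of the 10 Eph receptors tested, edgeR called 1 (3.47% of all genes), and DESeq2 called Ephb6 and Ephb1 (adjusted p = 0.0115 for Ephb1), against 8.98% of all genes. Ephb6 (chr6:41605482-41620509), which encodes a receptor without kinase activity, was at 0 in both acute RA libraries and at 3.81 CPM in F and 3.47 CPM in M of acute CS. Set against a floor of 3 counts per library, it was at least 67.7-fold higher in acute CS (edgeR's adjusted p = 0.00841). It was counted in every chronic library, at 1.01 to 2.95 CPM in RA and 1.09 to 7.52 CPM in CS, so the acute RA pair stood apart from all other libraries. Robo1, a Slit receptor gene, was also at 0 in acute RA and was at 1.45 CPM in F and 0.239 CPM in M of acute CS (edgeR's adjusted p = 0.243). Set against the same floor, its acute CS mean was at least 15.7-fold higher, carried mostly by F. Unlike Ephb6, Robo1 was at 0 in chronic RA M1 and chronic CS M2 as well.

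The main Eph receptors overlapped between the acute groups. Ephb4, the venous and lymphatic receptor of ephrin B2, was at 603 and 668 CPM in acute RA and 608 and 729 CPM in acute CS (log2 fold change 0.07, SE 0.21, edgeR's adjusted p = 0.946). Epha2, an ephrin A receptor gene, was at 81.9 and 83.6 CPM in acute RA and 64.3 and 82.5 CPM in acute CS, which overlapped (log2 fold change -0.17, SE 0.19, edgeR's adjusted p = 0.783). The ratio of Ephb4 to Efnb2, on the FPKM scale, was 7.26 to 11.5 in room air, 2.31 in F and 7.64 in M of acute CS. Both acute CS libraries lay below the acute RA values, 8.77 in F and 11.5 in M. Only F lay outside the range of all RA libraries.

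Of the Slit, Robo, netrin and Unc5 genes none of the 9 tested passed the threshold after acute CS in edgeR's test, 4 had an unadjusted p under 0.05 (15.7% of all genes), and DESeq2 called Slit3, Robo1, Robo4 and Unc5b (8.98% of all genes). Robo4, which stabilises endothelium, was at 623 and 625 CPM in acute RA and 422 and 449 CPM in acute CS. The replicates were close and the groups apart, with a log2 fold change of -0.52 (SE 0.14, edgeR's adjusted p = 0.0714). Slit3 was at 2.53 and 2.4 CPM in acute RA and 18.7 and 17.3 CPM in acute CS, also apart (log2 fold change 2.87, SE 0.79, edgeR's adjusted p = 0.0799). Unc5b, an endothelial netrin receptor gene, was at 177 and 186 CPM in acute RA and 75.3 and 103 CPM in acute CS, just outside the threshold (edgeR's adjusted p = 0.0509).

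The netrin ligands differed from each other. Ntn1 was at 545 and 574 CPM in acute RA and 332 and 438 CPM in acute CS, with both smoke libraries lower (log2 fold change -0.54, SE 0.28, edgeR's adjusted p = 0.403). Ntn4, a ligand gene of the basement membrane, was at 168 and 232 CPM in acute RA and 206 and 201 CPM in acute CS, which overlapped (log2 fold change 0.03, SE 0.27, edgeR's adjusted p = 0.989).

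**Figure D3:**
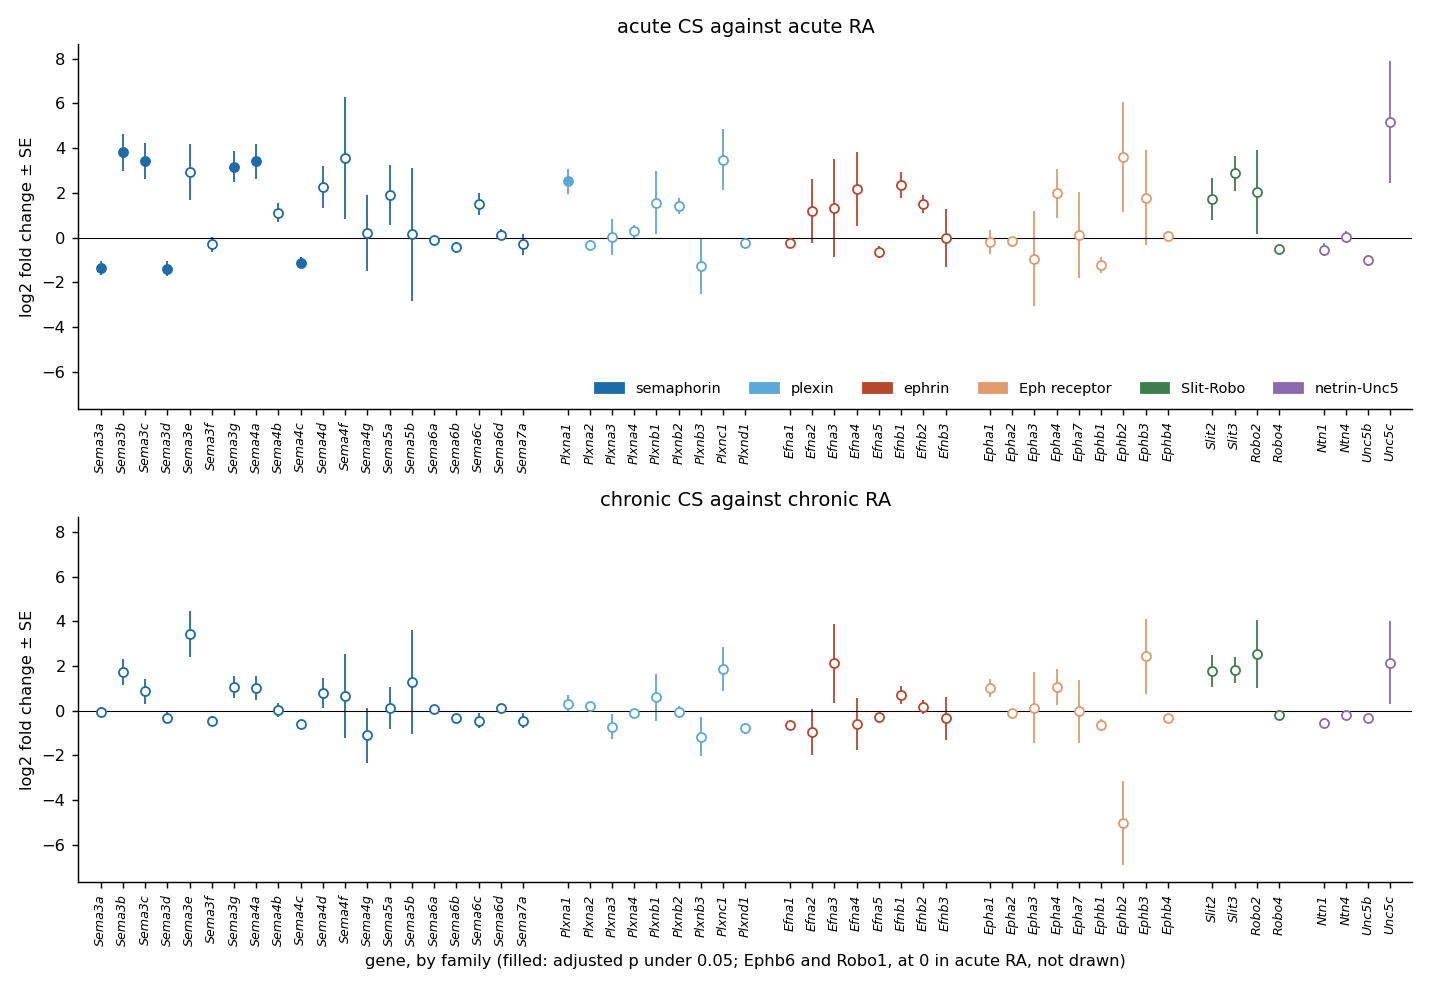
Log2 fold change with its standard error for the tested members, by family, after acute CS (upper panel) and chronic CS (lower panel), with filled points for adjusted p under 0.05 in edgeR's test. The called members of the upper panel run from -1.39 (Sema3d) to 3.81 (Sema3b), the lower panel has no filled point, and Ephb6 and Robo1, at 0 in acute RA, are not drawn.

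Marker genes of several cell types also differed between the acute groups. After acute CS, 7 of 8 lymphatic markers were lower, 3 of them called, and Ccl21a was near 0. Higher values were seen for 12 of 12 blood endothelial, 8 of 8 leukocyte, 10 of 11 alveolar macrophage, 10 of 10 lymphoid, 11 of 11 alveolar epithelial and 11 of 11 mesenchymal markers, by the sign of the log2 fold change. The numbers called were 8, 7, 4, 4, 1 and 6 in the same order, against 3.47% of all genes. The summed CPM of the 11 epithelial markers was 6754 in F and 279 in M of acute CS, against 788 and 1098 in acute RA, so the libraries of the smoke group differed most in this list. The macrophage sum was 2618 to 2641 CPM in acute CS against 707 to 792 CPM, and the lymphoid sum was 222 to 246 CPM against 21.9 to 24.7 CPM. The part of these cells in the calls among guidance genes was not tested.

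**Figure D4:**
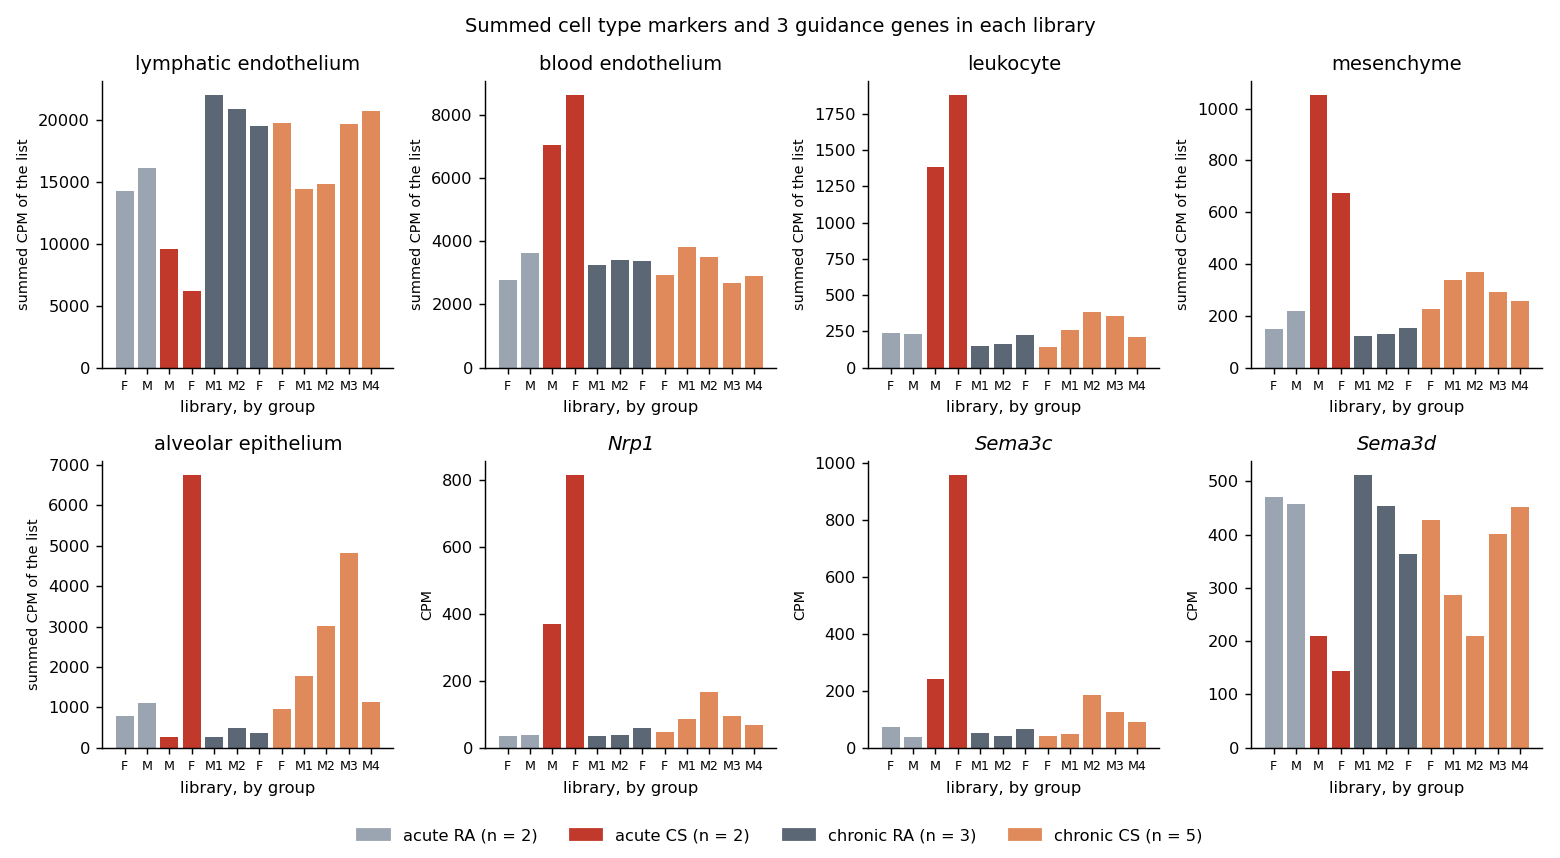
Summed CPM of 5 cell type marker lists, and CPM of Nrp1, Sema3c and Sema3d, in each of the 12 libraries (bars from 0, coloured by group). In acute CS the lymphatic sum (6190 to 9579) and Sema3d are low, the blood endothelial, leukocyte and mesenchymal sums and Nrp1 and Sema3c are high, and the epithelial sum is high in F (6754) and not in M (279).

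After chronic CS no member passed the threshold in edgeR's test, nor did any of the 21440 genes (0%). At an unadjusted p under 0.05 there were 11 of 56 members (5 higher, 6 lower) against 10.9% of all genes (5.57% and 5.35%), and DESeq2 called 5 members and 2.44% of all genes. The groups did not overlap for 9 members (3 higher, 6 lower), against 9.41% of all genes (3.92% and 5.49%). The median log2 fold change was 0.01 over the members and over all genes. The 6 members with the smallest p-values were Plxnd1, Efna1, Sema4c, Sema3e, Slit3 and Sema3b, given next as values that did not pass in edgeR's test. DESeq2 called 5 of them, with adjusted p-values of 0.015 for Plxnd1, 0.0339 for Efna1, 0.00687 for Sema3e, 0.0363 for Slit3 and 0.0479 for Sema3b, and not Sema4c (0.0911).

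Plxnd1, the receptor gene that leads the plexins, was at 240, 203 and 151 CPM in F, M1 and M2 of chronic RA. In chronic CS it was at 136, 114, 90.6, 140 and 101 CPM in F, M1, M2, M3 and M4, each below the lowest control. The log2 fold change was -0.77 (SE 0.18, edgeR's adjusted p = 0.253, unadjusted p = 0.00133). The exact permutation p of 0.0179 (two-sided, unadjusted) is the smallest that 5 libraries against 3 can give. Sema3e, Sema3g and Sema7a reached it as well. The direct ligand gene of plexin D1, Sema3e, was at 1.19, 0.115 and 0.0596 CPM in chronic RA and at 3.2, 6.03, 5.4, 8 and 1.76 CPM in chronic CS, in the same order. All smoke libraries exceeded all controls, although chronic RA M1 and M2 were near or below 3 counts (log2 fold change 3.42, SE 1.02, edgeR's adjusted p = 0.324). The size of this fold change depended on the fit, from 2.91 to 5.76.

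Efna1 was at 782, 706 and 747 CPM in chronic RA and 535, 427, 342, 510 and 590 CPM in chronic CS. Each smoke library was below each control, with a log2 fold change of -0.63 (SE 0.17, edgeR's adjusted p = 0.288). Sema4c was at 246, 214 and 232 CPM in chronic RA and 209, 132, 177, 140 and 113 CPM in chronic CS, again without overlap (log2 fold change -0.58, SE 0.17, edgeR's adjusted p = 0.324).

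Slit3, a Robo ligand gene also made by mesenchymal cells, was at 2.04, 1.12 and 1.76 CPM in chronic RA and 1.37, 11.8, 4.53, 7.66 and 3.53 CPM in chronic CS. Only chronic CS F lay within the range of the controls (log2 fold change 1.82, SE 0.59, edgeR's adjusted p = 0.342). Sema3b was at 3.04, 2.04 and 4.35 CPM in chronic RA and 6.51, 17.3, 16.6, 6.78 and 5.56 CPM in chronic CS. All smoke libraries were above the controls, M1 and M2 most (log2 fold change 1.74, SE 0.59, edgeR's adjusted p = 0.364). In the alternative fits the log2 fold change of Sema3b lay between 0.97 and 2.12. The mesenchymal marker sum was 225 to 370 CPM in chronic CS and 123 to 153 CPM in chronic RA, and the epithelial sum was 962 to 4823 CPM and 262 to 501 CPM. The part of these cells was not tested.

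The other genes called after acute CS were closer to their controls after chronic CS. Sema3a was at 143, 217 and 298 CPM in chronic RA and 204, 184, 185, 266 and 214 CPM in chronic CS (log2 fold change -0.06, edgeR's adjusted p = 0.947). Sema3d was at 364, 512 and 453 CPM in chronic RA and 427, 287, 209, 401 and 451 CPM in chronic CS (log2 fold change -0.32, edgeR's adjusted p = 0.644). For both genes the groups overlapped.

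Sema3c was at 66.6, 53.2 and 41.2 CPM in chronic RA and 41, 47.9, 184, 124 and 90.3 CPM in chronic CS (log2 fold change 0.86, edgeR's adjusted p = 0.579). Within the smoke group M2, M3 and M4 were above all controls and F and M1 were not. Sema3g was at 10.5, 4.49 and 11 CPM in chronic RA and 11.8, 25.6, 14.3, 20 and 17.5 CPM in chronic CS, without overlap (log2 fold change 1.05, edgeR's adjusted p = 0.459). Sema4a was at 5.98, 3.31 and 2.86 CPM in chronic RA and 6.62, 7.57, 3.91, 16.5 and 5.7 CPM in chronic CS, which overlapped (edgeR's adjusted p = 0.521). Plxna1 was at 30.9, 36.5 and 24.8 CPM in chronic RA and 40.6, 52.6, 37.1, 40.4 and 18.8 CPM in chronic CS, with M4 below all controls (edgeR's adjusted p = 0.808).

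Of the members outside these sets, Ephb1, the Eph receptor gene next in level after Epha2 in room air, was at 51.8 and 51 CPM in acute RA and 12.6 and 30.7 CPM in acute CS (log2 fold change -1.25, SE 0.36, edgeR's adjusted p = 0.099). It was at 62.4, 54.7 and 58.8 CPM in chronic RA and 28, 32.2, 33.5, 45 and 48.4 CPM in chronic CS. Smoke libraries were thus below their controls at both times, and the chronic unadjusted p was 0.0286. Plxnc1, a semaphorin 7A receptor gene also found on leukocytes, was at 2.53 and 1.34 CPM in acute RA and 21 and 22.8 CPM in acute CS (edgeR's adjusted p = 0.23). In chronic CS it was at 38.4 CPM in M2 and at 1.42 to 7.66 CPM in the other 4 libraries, against 1.84 to 4.61 CPM in chronic RA, so M2 stood alone. Its ligand gene Sema7a was at 60.2, 52.2 and 44.5 CPM in chronic RA and at 35.3 to 41.8 CPM in chronic CS, without overlap (unadjusted p = 0.205 in edgeR). Ephb2 had the lowest fitted chronic value, but it was under 1 CPM in every library and that value rested on 0.864 CPM in chronic RA M2.

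The neuropilin co-receptors did not pass the threshold after chronic CS. Nrp1 was at 59.6, 34.4 and 38.3 CPM in chronic RA and 47.9, 87, 167, 94.5 and 68.7 CPM in chronic CS (log2 fold change 1.08, SE 0.39, edgeR's adjusted p = 0.381). Nrp2 was at 1406, 1674 and 1664 CPM in chronic RA and 1765, 1331, 1134, 1432 and 1272 CPM in chronic CS (log2 fold change -0.19, SE 0.14, edgeR's adjusted p = 0.651). Both overlapped between groups. The ratio of Nrp2 to Nrp1, on the FPKM scale, was 19.5, 40.2 and 35.9 in chronic RA and 30.4, 12.6, 5.61, 12.5 and 15.3 in chronic CS, where only F reached the RA range. Of the 12 blood endothelial markers 11 were higher after chronic CS by the sign of the log2 fold change, with a median of 0.88 and none called, and their summed CPM was 2687 to 3832 against 3242 to 3408. By the same sign, 7 of 8 leukocyte markers (sum 143 to 382 against 149 to 222 CPM) and 10 of 11 macrophage markers (645 to 1059 against 607 to 715 CPM) were higher, as were 5 of 10 lymphoid markers (40.4 to 61.4 against 47.5 to 79.4 CPM). Of the 8 lymphatic markers 3 were higher, and their sum was 14410 to 20715 CPM against 19495 to 22030 CPM, lowest in M1 (14410) and M2 (14792). The part of these cells was not tested.

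The remaining members highest in their families overlapped between the chronic groups. Sema3f was at 495, 641 and 905 CPM in chronic RA and 556, 320, 514, 637 and 449 CPM in chronic CS. Plxna2 was at 98.3, 161 and 121 CPM in chronic RA and 166, 133, 172, 157 and 117 CPM in chronic CS. In both genes 1 control library set one end of the range, M2 for Sema3f and F for Plxna2. Efnb2 was at 97.6, 133 and 107 CPM in chronic RA and 110, 86.9, 134, 175 and 124 CPM in chronic CS. Ephb4 was at 741, 654 and 752 CPM in chronic RA and 715, 433, 488, 598 and 650 CPM in chronic CS, the 4 male smoke libraries being below all controls. Epha2 was at 65.4, 63.7 and 68.5 CPM in chronic RA and 56.5, 58.5, 77.8, 60.7 and 52.3 CPM in chronic CS, where M2 alone exceeded the controls. Robo4 was at 719, 626 and 719 CPM in chronic RA and 590, 667, 569, 508 and 636 CPM in chronic CS. Ntn1 was at 818, 949 and 1006 CPM in chronic RA and 790, 526, 417, 825 and 634 CPM in chronic CS, with only M3 reaching the lowest control. Ntn4 was at 197, 214 and 245 CPM in chronic RA and 206, 119, 174, 234 and 221 CPM in chronic CS. Ephb6 was at 2.32, 1.01 and 2.95 CPM in chronic RA and 1.21, 4.01, 7.52, 2.38 and 1.09 CPM in chronic CS, and also overlapped.

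The difference between the acute and the chronic effect passed the threshold for 1 member, Ephb6 (edgeR's adjusted p = 0.0406), against 0.452% of all genes. This rests on the 0 counts of acute RA. The call held without acute CS M and without chronic CS M2, and was lost when any other single library was left out or sex was a covariate. At an unadjusted p under 0.05 there were 15 of 56 members, against 11.9% of all genes. For Sema3a the acute effect was lower than the chronic effect by a log2 difference of -1.30 (SE 0.38, edgeR's adjusted p = 0.178), and for Plxna1 it was higher by 2.21 (SE 0.65, edgeR's adjusted p = 0.181). DESeq2 called Sema3a, Sema6c and Plxna1 besides Ephb6, with 4.27% of all genes. Without acute CS M, which left acute CS a single library, edgeR called Sema3g, Plxna1 and Efnb2 besides Ephb6. More of all genes passed in that fit than with all libraries. For the other acute calls no fit called the difference at the adjusted threshold, and for them an acute call without a chronic one is not shown to be a difference between exposure times.

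Between the control groups, chronic RA and acute RA, no member passed the threshold in edgeR's test and DESeq2 called 3 (Sema6c, Ephb6 and Robo1) and 1.18% of all genes. At an unadjusted p under 0.05 there were 8 of 56 members, all higher in chronic RA, against 7.01% of all genes (4.52% higher). These were Sema4b, Sema6c, Plxna4, Plxnd1, Efna1, Ephb6, Robo1 and Ntn1. Sema6c, a membrane semaphorin gene, was at 2.48 and 3.18 CPM in acute RA and 12.3, 5.73 and 9.83 CPM in chronic RA, without overlap. Plxnd1, at 151 to 240 CPM in chronic RA, was at 120 and 136 CPM in acute RA and at 90.6 to 140 CPM in chronic CS. Efna1, at 706 to 782 CPM in chronic RA, was at 445 and 592 CPM in acute RA and at 342 to 590 CPM in chronic CS. For both genes the acute RA and chronic CS values overlapped, and chronic RA is shared by the comparisons with them.

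A wider list of 56 neuropilins, further guidance receptors and intracellular partners held 55 genes found in the files and 48 tested. After acute CS 5 of 48 were called, 3 higher and 2 lower, against 3.47% of all genes, and their median log2 fold change was -0.03, while after chronic CS none was by edgeR or DESeq2 (5 at an unadjusted p under 0.05, against 10.9% of all genes). Besides Nrp1 and Nrp2 the called genes were Flrt3, an adhesion gene whose product binds Unc5 receptors, and Vasp and Evl, which encode regulators of actin filaments. Flrt3 was at 170 and 159 CPM in acute RA and 61.4 and 85.7 CPM in acute CS, and fell by 1.16 on the log2 scale (SE 0.24, edgeR's adjusted p = 0.0223). Vasp was at 38.1 and 51.3 CPM in acute RA and 97.6 and 77.7 CPM in acute CS (log2 fold change 0.97, SE 0.21, edgeR's adjusted p = 0.0307). Evl was at 15.3 and 15.9 CPM in acute RA and 53.7 and 36.1 CPM in acute CS (log2 fold change 1.52, SE 0.37, edgeR's adjusted p = 0.046). After chronic CS Flrt3 was at 133, 122, 189, 124 and 117 CPM, against 144, 145 and 170 CPM in chronic RA, and overlapped. Vasp was at 31.7, 45.3, 40.4, 46.5 and 40.4 CPM, against 55.5, 47.3 and 51.3 CPM, and lay below every control (edgeR's adjusted p = 0.466). Evl was at 14.3, 22.8, 17, 17.5 and 12.8 CPM, against 22.2, 13.5 and 11 CPM, and overlapped. In all 3 the acute groups did not overlap, and without acute CS F the adjusted p-values of edgeR were 0.203, 0.252 and 0.329.

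Of the 26 members under 1 FPKM in room air, 19 were at 3 counts or fewer in at least 1 library, and 7 were above that in every library. A floor of 3 counts corresponded to between 0.0507 and 0.158 CPM, depending on the library, which covers counting error only. Epha1 shares 156 bases of exon with Zyx on the opposite strand, and Zyx held 115241 counts over all libraries against 2799 for Epha1. Efna3 and Efna4 overlap antisense genes whose total counts were 74 and 103, against 77 and 326 of their own. Values of these 3 genes may therefore be affected by reads from the shared bases. Whether such reads were added or left out depends on the strand setting, which is not given.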

How the data were processed

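Members and gene lists were chosen with earlier results of these data known. The authors deposited raw read counts per Ensembl gene for 12 libraries, made from SMART-Seq v4 and Nextera XT libraries by trimming with Skewer, quality checks with FastQC 0.11.9 and Minion, and alignment to GRCm38 with STAR in its GeneCounts mode, without normalization. The STAR version, annotation release and strand setting are not given in the sources used here.

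Names, positions and exon lengths came from GENCODE M21, in which 147 identifiers (at most 0.011% of a library) were not found. Tests were run with edgeR 4.0.16 under R 4.3.3 (filterByExpr, TMM, quasi-likelihood F-test), with all 12 libraries in 1 fit by group. Benjamini-Hochberg adjusted p-values over 21440 genes were called at 0.05. FPKM used the union of exons. Two-sided exact permutation tests of log2 CPM (prior count 2) cannot go below 0.333 in the acute and 0.0179 in the chronic comparison. Libraries were not stated to be separate experiments, so p-values measure the spread between these libraries. Sex was balanced only in the acute groups.

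Genes given in every library were the members past the threshold, the 2 per family highest in room air, the 6 with the smallest chronic p-values, and Nrp1, Nrp2 and other called genes of the wider list. Sema4d, Sema6a, Sema6c, Sema7a, Plxnb2, Plxnc1, Efnb1, Ephb1, Ephb2, Unc5b and Robo1 were added after their values were seen. Alternatives were DESeq2 1.42.0, other scalings, no filter, only the groups compared, sex as covariate, a replicate block, robust estimation, chronic CS subsets, volcano limits and leaving out each library. The method was tested on simulated counts. Figures used matplotlib 3.10.9.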

Additional observations from a re-analysis of the deposited data

Results flagged for a closer look

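Flrt3 was at 189 CPM in chronic CS M2, while the other 4 libraries of that group lay between 117 and 133 CPM. This gap exceeds Dixon's 95% limit for 5 values. It was the only flag of this kind among 26 genes checked, and chance flags about 1 in 20 groups. Ephb6 differed between the acute and the chronic effect of CS (edgeR's adjusted p = 0.0406), with both acute RA libraries at 0.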

How the results depend on the processing

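Members called after acute CS, 9 by edgeR with all libraries, were 19 with DESeq2, 14 at an unadjusted p under 0.005 with a log2 fold change of 1 (4.1% of all genes), 1 (Slit3) with only the groups compared, 0 with a replicate block, and 0 to 12 when single libraries were left out. Among all genes the acute calls were 745, with 1926 from DESeq2, 139 with only the groups compared, 73 with the block and 3 to 973 without single libraries. Called after chronic CS, 0 members by edgeR became 5 with DESeq2 (524 of all genes). Between the RA groups, 0 became 3 with DESeq2 (253 of all genes) and 2 under the volcano limits (0.513% of all genes). For the acute minus the chronic effect, 1 became 4 with DESeq2 (916 of all genes, 97 by edgeR), 0 with sex as covariate, 0 with the block, 0 with chronic CS F, M1 and M2 only, and 0 to 4 when single libraries were left out (0 to 263 of all genes). Of the wider list, 5 acute calls became 12 with DESeq2, 0 with only the groups compared, 0 with the block, and 0 to 7 when single libraries were left out. The cause of these shifts was not tested. The labels do not state whether libraries with the same sex or number were paired. Their deviations from the group means correlated at -0.0419 to 0.0693. This cannot decide it, since the deviations of F and M mirror each other in groups of 2. The acute member median of 0.69 ranged from 0.22 (only the groups compared) to 1.17 (sex as covariate). No log2 fold change named for a call reversed. Scaling by library size alone moved the median of all genes by -0.104 between the RA groups. Levels near 3 counts per library are limited by depth, and 2 libraries per acute group limit the test.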
